A study of Oncorhynchus mykiss with 28 samples.

Results

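Poor eggs of rainbow trout were compared between the 2 ways of controlling ovulation that gave them, hormonal induction (HI) and photoperiod manipulation (PM). A female was taken as a producer of poor eggs when fewer than 50% of the eggs of her spawn developed into normal alevins at yolk-sac resorption. This gave 14 of the 28 arrays, those of 5 HI females and 9 PM females. HI females had lived under natural day length and received an intraperitoneal injection of a GnRH analogue after a move to recirculated water. PM females, which had already spawned once, were held under constant light and then under short days until they ovulated, so the light regime and injection both differ between the groups. The sources used here do not give the spawning history of the HI females. Both groups were of an autumn-spawning strain, and each array held RNA from a pool of unfertilized eggs of 1 female. The other arrays were those of 5 HI and 5 PM females with good eggs and of 4 females that had ovulated naturally (N). All HI samples carry another year in the labels (2004) than all PM and N samples (2003), so hormonal induction and year cannot be told apart in any comparison of HI with PM eggs.

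An ovulated egg is transcriptionally silent. Its messenger RNAs were laid down by the growing oocyte and serve the embryo until its own genome is switched on, so a transcript level in the egg reflects earlier synthesis, storage and decay. A GnRH analogue makes the pituitary release luteinizing hormone, which drives the last maturation of the oocyte and ovulation. Day length sets the timing of the whole reproductive season in trout, vitellogenesis included.

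The limit of 50% chose the females of both groups, so their egg quality is given as a description. Normal alevins made up 2%, 19.7%, 28.5%, 35.6% and 39.8% of the eggs of the 5 HI females, against a lowest value of 0%, a median of 29% and a highest value of 43.9% in the 9 PM females. The means were 25.1 ± 15.01% in HI females (SD, n = 5) and 21.8 ± 19.0% in PM females (SD, n = 9), 3.34 percentage points apart. The groups overlapped over almost their whole range but were not filled alike, since only HI replicate 1 was below 15% while PM replicates 1 to 4 were. Eyed embryos averaged 60.8% in HI eggs and 39.6% in PM eggs. The poor females closest to the limit were at 39.8% in the HI group and 43.9% in the PM group, and the good females closest to it were at 89.5% and 71.5%.

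**Figure D1:**
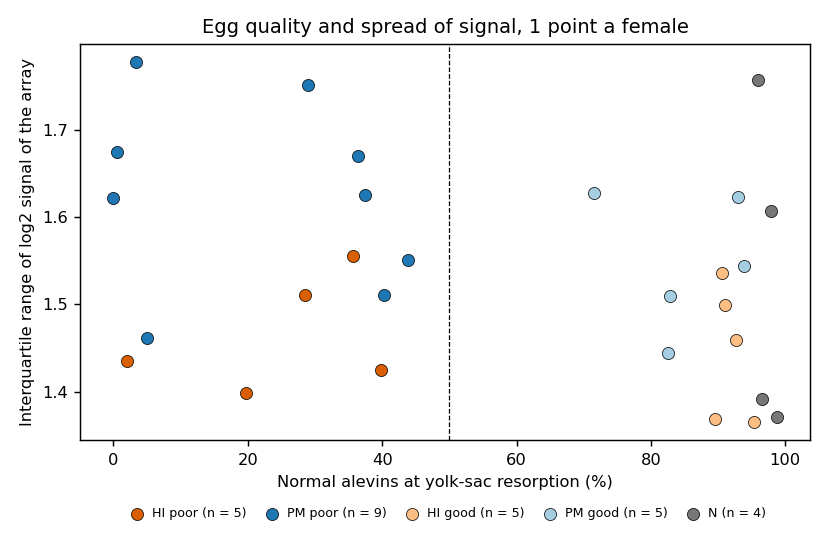
Percentage of normal alevins (x axis) and interquartile range of log2 signal of the array (y axis) of each of the 28 arrays, coloured by group, with the limit of 50% dashed. The 5 poor HI arrays lie between 1.40 and 1.56 on the y axis, and 6 of the 9 poor PM arrays lie above them.

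The array held cDNA clones spotted on nylon and hybridised with radioactively labelled egg cDNA. Each value is the intensity of a clone divided by the median of its array, and is given here on the log2 scale, where 0 is the array median and 1 is a signal of 2 times that median. A deposited value of 0 was treated as missing. Between 8146 and 8594 clones had a signal on the 14 arrays. The arrays differed in how widely their signals were spread. The interquartile range of log2 signal was 1.47 ± 0.07 on the HI arrays (SD, n = 5) and 1.63 ± 0.11 on the PM arrays (SD, n = 9), a difference of -0.16 (two-sided exact permutation test, p = 0.0140). Signals were thus packed more closely around the array median in poor HI eggs. In good eggs the same difference was -0.10 (exact permutation p = 0.0794). PM replicate 4 carries the same female number in the labels as N replicate 1, and whether they are 1 female was not tested. Egg-defining markers such as zona pellucida proteins were not checked here, since no clone was paired with their names. Because each array pooled the eggs of a female, a like change in every egg and a large change in some of them cannot be told apart, and neither can a lower level of 1 transcript and higher levels of the others.

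Among the clones of the 8332 tested that passed the threshold, more had lower than higher signals in poor HI eggs compared with poor PM eggs. This imbalance was smaller after quantile normalization, described below (133 lower and 98 higher). With limma and Benjamini-Hochberg adjustment, 541 clones passed an adjusted p of 0.05 (6.49% of those tested), of which 145 were more abundant in HI eggs (1.74%) and 396 were less abundant (4.75%). These clones are termed called below. Differences were modest. The called clones that were higher in HI eggs had a median difference of 0.52 and reached 1.11, and those that were lower had a median of -0.44 and reached -1.30. Only 2 called clones differed by 1 or more. In 35 clones (0.42%) every HI value was above every PM value, and in 132 clones (1.58%) every HI value was below every PM value.

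The direction of a call went with the strength of the signal. Called clones that were lower in HI eggs had a median signal of 1.02, and called clones that were higher had a median signal of -0.37, against -0.04 over all clones. Of the 2777 clones with the strongest signals, 16 were called higher and 291 lower, while of the 2778 with the weakest signals 62 were called higher and 17 lower. Across the 8332 clones the difference correlated with the mean signal (Pearson r = -0.35, a description over clones that share the same 14 arrays). After quantile normalization, which gives every array the same spread, this correlation was -0.03, and 231 clones were called, 98 higher and 133 lower, of which 193 were also called before. Scaling each array to the same median absolute deviation left 176 called clones, 65 higher and 111 lower. With the interquartile range of the array as a covariate 1 clone was called, RL10. What part of the differences in single clones goes with the spread of the arrays was not tested beyond these fits.

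**Figure D2:**
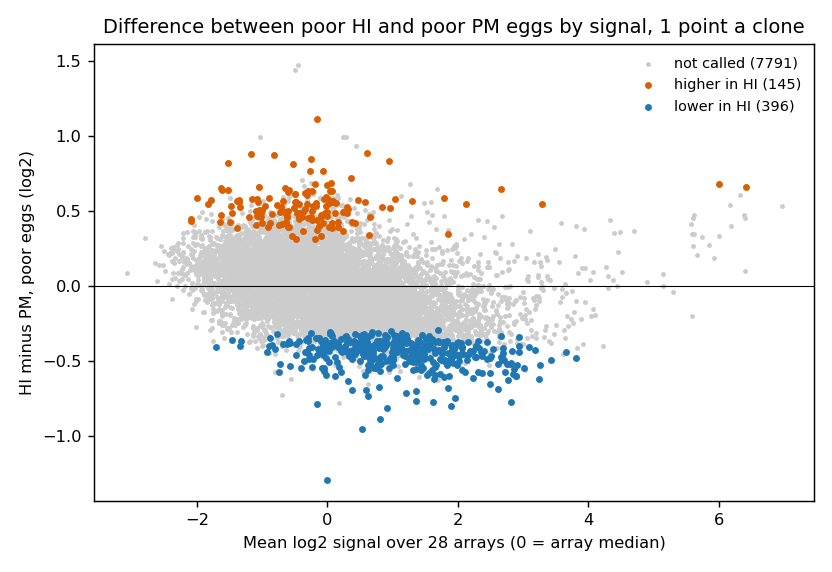
Difference in log2 signal between poor HI and poor PM eggs (y axis) against mean log2 signal over 28 arrays (x axis), 1 point a clone. The 396 clones called lower in HI eggs lie mostly to the right of 0 and the 145 called higher mostly to its left.

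The number of calls rested on single females, above all on HI replicate 1, whose eggs were the poorest of the HI group (2% normal alevins). Without that array no clone was called by limma (1560 clones at an unadjusted p under 0.05, against 2160 with it), and the lowest adjusted p was 0.0513. All 541 clones kept their direction and an unadjusted p under 0.05 in that fit. Their median difference, taken in the called direction, was 0.42 against 0.46. The fits in this paragraph reuse arrays from which these clones were chosen, so direction and size in them are no independent check. HI replicate 1 was the most extreme HI array, in the called direction, in 260 of the 541 clones (48.1%). Each of the other HI arrays was so in 31 to 115 clones. The clones were called with all these arrays in the fit, so these shares may reflect their choice. Leaving out another array gave 120 calls without HI replicate 4, 153 without PM replicate 5, 215 without PM replicate 3, 224 without HI replicate 2, 256 without PM replicate 2, 343 without PM replicate 6 and 431 to 705 without each of the others. Without PM replicate 4 and N replicate 1 together, 845 clones were called. Among females with 15% to 50% normal alevins, 4 HI and 5 PM, 3 clones were called. Of the 541 clones, 499 had the same direction with an unadjusted p under 0.05 there. Over all 8332 clones, 1297 were at that p in either direction. These females are among those from which the 541 clones were chosen. With the 3 PM arrays whose spread lay within the HI range, 4 clones were called, all higher in HI eggs. The median difference of the 541 clones in the called direction was 0.42 among the females with 15% to 50%, 0.36 with those PM arrays and 0.29 with the interquartile range as a covariate in the fit of 28 arrays.

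**Figure D3:**
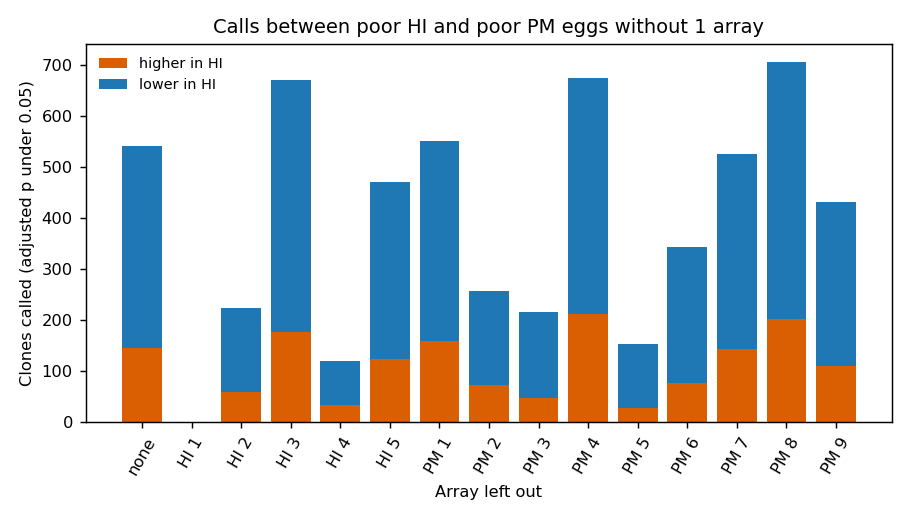
Number of called clones (y axis, adjusted p under 0.05) in the fit of all 28 arrays and after leaving out each of the 14 poor-egg arrays (x axis), split into clones higher and lower in HI eggs. The count falls to 0 without HI replicate 1 and reaches 705 without PM replicate 8.

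Gene names come from the study's own lists of clones that differed between ovulation groups or with egg quality, made by the study on these samples by sequence similarity with known genes. They are thus no independent evidence of a direction. The study treated its egg-quality list as candidates because of a high false discovery rate. Of those it then measured by real-time PCR, only PHB2 correlated with egg quality. Real-time PCR over eggs of all qualities gave more RPL24 in HI than in PM eggs, more NTAN1 and less MR-1 in HI eggs. It gave no significant group difference for others, among them RBM5, DAB2, SEC22 and DBNL. Of 54 listed clones, 14 were called between poor HI and poor PM eggs, 7 higher and 7 lower, against 1.74% and 4.75% over all clones. These shares over all clones also stand beside the groups of listed clones below. After quantile normalization 10 listed clones were called, 8 higher and 2 lower, and 9 of them were among the 14. Scaling each array to the same median absolute deviation left 9, of which 8 were higher and 1 lower. Counts by group describe the study's lists and test no pathway. The 23 clones listed for ovulation group gave 12 of the 14 calls, and the 31 listed for egg quality gave 2. Below, rose and fell mean a higher or lower signal in poor HI than in poor PM eggs. They do not say which group differed from N eggs. The median difference was 0.01 over the 54 listed clones and -0.02 over all clones. Strength of signal also bears on these shares. Among the clones that fell, DBNL, DAB2, HSPA9B, DDAH2, tcbk0051.e.02 and SEC22 had mean signals from 2.49 down to 1.07. They thus lay among the 2777 clones with the strongest signals, of which 291 were called lower and 16 higher. RPN2, RBM5, ING1 and RL10 also lay there and rose. None of the 14 was called without HI replicate 1, where their adjusted p by limma ran from 0.0513 to 0.152.

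Transcripts of both listed ribosomal proteins were more abundant in poor HI eggs. RL10, ribosomal protein L10 of the large subunit (clone tcbk0027.b.05), had log2 signals of 1.70, 0.88, 1.31, 1.31 and 0.97 in HI replicates 1 to 5, against a lowest value of -0.09, a median of 0.18 and a highest value of 0.87 in PM eggs. The groups did not overlap, although the second HI female and the highest PM female were nearly equal. Means were 1.23 in poor HI, 0.35 in poor PM and 0.29 in N eggs. The difference between HI and PM eggs was 0.88 ± 0.18 (SE), a fold of 1.84 (limma, adjusted p = 0.0105). It was called in 13 of the 14 fits that left out an array, and it was 1.10 with the interquartile range as a covariate (adjusted p = 0.0392). RPL24, another protein of the large subunit (clone 1RT139F11_B_C06), had signals of 0.80, 0.13, 0.70, 0.60 and 0.18 in HI eggs, against -0.91, -0.33 and 0.47 as lowest, median and highest in PM eggs. HI replicates 2 and 5 lay within the PM range. The difference was 0.76 ± 0.21 (SE), with an adjusted p of 0.0320 by limma.

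**Figure D4:**
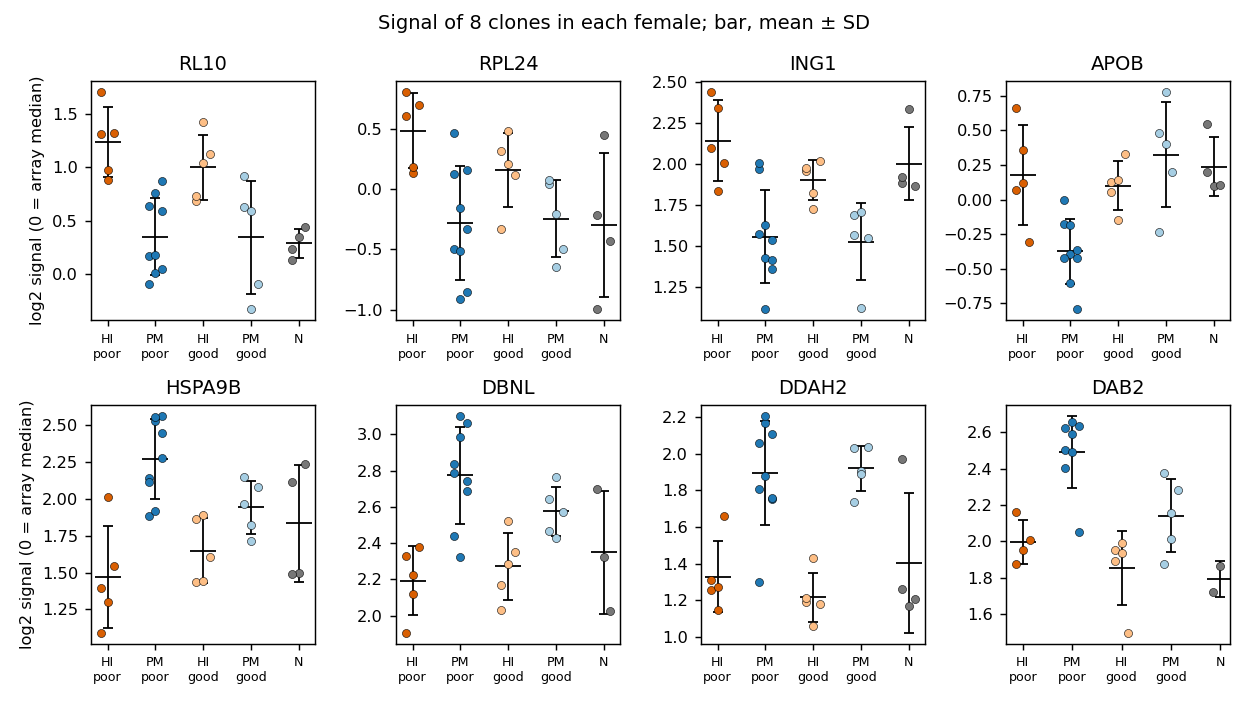
Log2 signal (y axis, 0 is the array median) of 8 called clones in each female, by group (x axis), with the mean and SD of the group. RL10, RPL24, ING1 and APOB are higher and HSPA9B, DBNL, DDAH2 and DAB2 are lower in poor HI eggs than in poor PM eggs, and RL10 is the one of the 8 in which the groups do not overlap.

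Of 4 listed clones for RNA binding and RNA processing, RBM5 rose and the other 3 were not called. RBM5 is a regulator of splicing. Its clone averaged 2.48 ± 0.33 in HI eggs (SD, n = 5) and 1.94 ± 0.26 in PM eggs (SD, n = 9), with an adjusted p of 0.0258 by limma. N eggs averaged 2.26 ± 0.33 for RBM5 (SD, n = 4). CTNNBL1, a protein associated with the spliceosome, had a difference of -0.39 (adjusted p = 0.0797), and DCPS, the scavenger decapping enzyme that clears the cap left by RNA decay, one of 0.32 (adjusted p = 0.0875).

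Of 8 listed clones for chromatin and transcription, ING1 rose and ZNF261 fell. ING1, a chromatin reader of the inhibitor of growth family (clone 1RT162C23_A_B12), had signals of 2.10, 1.83, 2.01, 2.44 and 2.34 in HI eggs, against a lowest value of 1.12, a median of 1.54 and a highest value of 2.01 in PM eggs. The top of the PM range reached HI replicate 2 and, to 2 decimals, HI replicate 3. The difference was 0.58 ± 0.13 (SE), with an adjusted p of 0.0133 by limma. ING1 averaged 2.14 in poor HI, 2.00 in N and 1.56 in poor PM eggs. ZNF261, a zinc finger protein that the study listed for egg quality, averaged 0.63 ± 0.17 in HI eggs (SD, n = 5) and 1.03 ± 0.17 in PM eggs (SD, n = 9), with an adjusted p of 0.0378. After quantile normalization the ZNF261 difference was -0.28 (limma, adjusted p = 0.0922). The other 6 clones of this group were not called, among them TLE1, a corepressor, with a difference of -0.27 (adjusted p = 0.0955).

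Of 6 clones for mitochondria and metabolism, 2 were called, both lower in poor HI eggs (4.75% of all clones were called lower). Both lay among the 2777 clones with the strongest signals, of which 291 were called lower. The means of all 6 were lower in HI eggs, as they were for 53.5% of all clones, but for PHB2 and PYC the sign changed between fits. HSPA9B, the mitochondrial chaperone of the heat shock 70 family (clone tcay0030.n.02), had signals of 1.09, 1.30, 1.55, 1.39 and 2.01 in HI eggs, against a lowest value of 1.88, a median of 2.28 and a highest value of 2.57 in PM eggs. HI replicate 5 alone reached into the PM range. Means were 1.47 in poor HI, 1.84 in N and 2.27 in poor PM eggs. The difference between HI and PM eggs was -0.80 ± 0.15 (SE), a fold of 1.74. Its adjusted p of 0.00797 by limma was the lowest of the whole table, shared with other clones. DDAH2 belongs to the family of enzymes that break down methylated arginines, inhibitors of nitric oxide synthesis. Its clone 1RT87E10_C_C05 had signals of 1.31, 1.15, 1.66, 1.26 and 1.27 in HI eggs, against a lowest value of 1.30, a median of 1.88 and a highest value of 2.21 in PM eggs. The PM value of 1.30 was that of replicate 4, and the other 8 PM females were at 1.75 or more, above every HI female. The difference was -0.56 ± 0.13 (SE), with an adjusted p of 0.0167. It was -0.39 after quantile normalization, with an adjusted p of 0.0555. DDAH2 averaged 1.33 in poor HI, 1.40 in N and 1.89 in poor PM eggs. The N mean was raised by N replicate 1 (1.97), which shares a female number with PM replicate 4. The other N females were at 1.17 to 1.26, below the poor HI mean.

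MR-1 had a difference of -0.47 (limma, adjusted p = 0.0597). Its database hit was hydroxyacylglutathione hydrolase, but the study named it after myofibrillogenesis regulator 1, which its assembled sequence resembled. It is counted above with the clones for mitochondria and metabolism. PYC, pyruvate carboxylase, had one of -0.12 with only 3 HI values (adjusted p = 0.668). PHB2, prohibitin 2 of the inner mitochondrial membrane, which the study listed for egg quality, averaged -0.02 ± 0.07 in HI eggs (SD, n = 5) and -0.01 ± 0.16 in PM eggs (SD, n = 9). The difference was -0.01 ± 0.10 (SE), with an adjusted p of 0.970, and its sign depended on the fit.

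Listed clones grouped under secretory pathway and glycosylation, with the endocytic adaptor DAB2 counted among them, were called in both directions. Of 6, RPN2 rose and DAB2 and SEC22 fell. After quantile normalization only RPN2 of these 3 was still called (limma, adjusted p = 0.0412). RPN2, ribophorin II of the complex that attaches sugars to new proteins in the endoplasmic reticulum, averaged 3.67 ± 0.36 in HI eggs (SD, n = 5) and 3.12 ± 0.32 in PM eggs (SD, n = 9), with an adjusted p of 0.0375 by limma. This call was kept in 6 of the 14 fits without an array. DAB2, an adaptor of clathrin-mediated endocytosis (clone 1RT56O04_C_H02), had signals of 1.88, 1.95, 2.01 and 2.16 in the 4 HI females with a value, against a lowest value of 2.05, a median of 2.54 and a highest value of 2.66 in 8 PM females. The PM value of 2.05 was again that of replicate 4, and without it the groups did not overlap. The difference was -0.49 ± 0.12 (SE), with an adjusted p of 0.0231. It was -0.27 after quantile normalization, with an adjusted p of 0.196. The 2 N females with a DAB2 value averaged 1.79, against 2.00 in poor HI and 2.49 in poor PM eggs. SEC22, a vesicle protein of the traffic between endoplasmic reticulum and Golgi, had a difference of -0.42 (adjusted p = 0.0328).

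Of 8 clones for cytoskeleton and adhesion only DBNL was called. DBNL, an adaptor that binds actin (clone 1RT64F24_D_C12), had signals of 1.91, 2.12, 2.38, 2.33 and 2.23 in HI eggs, against a lowest value of 2.32, a median of 2.79 and a highest value of 3.10 in PM eggs. HI replicates 3 and 4 reached the bottom of the PM range. The difference was -0.58 ± 0.13 (SE), with an adjusted p of 0.0115 by limma. KIF4A, a motor protein of the spindle, had a difference of -0.32 (adjusted p = 0.0961). Of 3 clones for protein turnover and folding, NTAN1 rose. NTAN1, the amidase that converts an N-terminal asparagine and so marks proteins for decay, averaged 0.13 ± 0.26 in HI eggs (SD, n = 5) and -0.30 ± 0.13 in PM eggs (SD, n = 9), with an adjusted p of 0.0238. HI replicate 2, at -0.27, lay within the PM range. N eggs averaged -0.23 ± 0.03 for NTAN1 (SD, n = 4).

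Of 5 clones for lipid transport and lipases, APOB was higher in poor HI than in poor PM eggs and 4 were not called. APOB is the structural protein of the lipoproteins that carry fat in the blood, and the study listed its clone, 1RT85M16_C_G08, for egg quality. Signals were 0.66, 0.36, -0.31, 0.07 and 0.12 in HI eggs, against a lowest value of -0.79, a median of -0.39 and a highest value of -0.01 in PM eggs. Every HI female but replicate 3 was above all PM females. The difference was 0.55 ± 0.15 (SE), with an adjusted p of 0.0292 by limma, and 0.43 without HI replicate 1 (adjusted p = 0.136). APOB averaged 0.18 in poor HI eggs, 0.24 in N eggs, 0.10 in good HI eggs and 0.32 in good PM eggs, against -0.37 in poor PM eggs. Other listed clones of proteins made by the liver or found in plasma were TF, VWF and APOC1, and the share of liver or blood RNA in the eggs was not tested. TF, transferrin, averaged 0.08 ± 0.15 in HI eggs (SD, n = 5) and 0.14 ± 0.15 in PM eggs (SD, n = 9), with an adjusted p of 0.722. VWF, von Willebrand factor, averaged 2.70 ± 0.16 in HI eggs (SD, n = 5) and 2.70 ± 0.19 in PM eggs (SD, n = 9). Neither was called.

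The other lipid clones missed the threshold. OSBPL5, an oxysterol-binding protein, had a difference of 0.63 (limma, adjusted p = 0.0625), APOC1, another apolipoprotein, one of 0.59 (adjusted p = 0.111) and LYPA3, a lysophospholipase, one of 0.23 (adjusted p = 0.124). PGH2, prostaglandin G/H synthase, which makes the prostaglandins that take part in ovulation, had one of -0.46 (adjusted p = 0.0600). None of the 5 signalling clones was called, with differences from -0.21 to 0.23, among them BMP7, PDGFRA and TGFBR2.

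Of 4 listed clones without a gene name, tcbk0051.e.02 fell in poor HI eggs. Its signals were 1.30, 0.43, 0.71, 0.92 and 1.59 in HI eggs, against a lowest value of 0.85, a median of 1.81 and a highest value of 2.45 in PM eggs, with a difference of -0.77 ± 0.20 (SE) and an adjusted p of 0.0239 by limma. HI replicates 1, 4 and 5 overlapped the PM range. Means were 0.99 in poor HI, 1.35 in N and 1.76 in poor PM eggs. After quantile normalization the difference of this clone between HI and PM eggs was -0.62 (limma, adjusted p = 0.0670). Clone 1RT159P21_B_H11 had a difference of 0.47 (adjusted p = 0.0545).

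The clones with the largest changes that also did not overlap carried no gene name in the sources used here, except RL10. Of the 8332 clones tested, called or not, 35 (0.42%) did not overlap with HI values higher, and 132 (1.58%) with HI values lower. Called and not overlapping were 19 clones higher in HI eggs and 107 lower. The bearing of the narrower spread of the HI arrays on this imbalance was not tested. Among the 107 lower ones, tcay0011.h.10 had signals of -0.20, 0.12, 0.22, -0.24 and -0.15 in HI eggs. PM eggs had a lowest value of 0.48, a median of 0.86 and a highest value of 1.53. All 5 HI females thus stood near the array median and all 9 PM females above it. The difference was -0.95 ± 0.17 (SE), with an adjusted p of 0.00797 by limma. Next in size were tcbk0027.i.10 with -0.79, 1RT83E23_A_C12 with -0.78, tcbk0033.i.20 with -0.75, tcbk0049.m.22 with -0.70 and tcad0003.b.17 with -0.69.

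Among the higher ones after RL10, 1RT117I19_A_E10 had signals of -0.60, -0.30, -0.34, -0.61 and -0.06 in HI eggs, against a lowest value of -1.48, a median of -1.001 and a highest value of -0.75 in PM eggs. It was below the array median in each of the 14 females. The difference was 0.65 ± 0.14 (SE), with an adjusted p of 0.0105 by limma. Next were 1RT113F11_B_C06 with 0.63, 1RT74K23_A_F12 with 0.62, 1RT58K23_A_F12 with 0.61 and 1RT112J20_D_E10 with 0.61. Of the 10 clones with the largest rises and no overlap, the 9 other than RL10 had names starting with 1RT, while the other clones of the array have names starting with tc. The 1RT names made up 74.5% of all clones called higher, 24.7% of those called lower and 36.8% of all clones tested. The bearing of this naming on the direction was not tested.

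In good eggs the same contrast gave no call. Between 5 HI and 5 PM females with good eggs, 0 clones (0%) passed an adjusted p of 0.05 by limma, with 910 at an unadjusted p under 0.05 and a lowest adjusted p of 0.149. No array is shared between this contrast and that in poor eggs. Of the 541 clones called in poor eggs, 366 had the same sign in good eggs (67.7%, against 57.8% over all clones), 88 of the 145 higher ones and 278 of the 396 lower ones. After quantile normalization the share was 61.9% of the 231 clones called in that fit, against 55.0% over all clones. The median difference of the 541 clones in good eggs was 0.07 for those called higher and -0.08 for those called lower. These clones were chosen by their difference in poor eggs, which favours a larger difference there. The contrast in good eggs also had fewer PM females (5 against 9), so sizes and numbers of calls are not a like comparison. Across all clones the differences in poor and in good eggs correlated weakly (Pearson r = 0.24, a description over clones, 0.16 after quantile normalization).

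Several listed clones had differences in good eggs of about the size of those in poor eggs, although none was called there. The study made its lists with good-egg samples included, so such differences are no independent evidence. Over the 541 clones called in poor eggs, the median difference in good eggs was 0.07 for those called higher and -0.08 for those called lower. DDAH2 differed by -0.56 in poor eggs. It averaged 1.22 ± 0.13 in good HI eggs and 1.92 ± 0.12 in good PM eggs (SD, n = 5 each), a difference of -0.70 (limma, adjusted p = 0.149). The groups of good eggs did not overlap, with a highest HI value of 1.43 and a lowest PM value of 1.73. RBM5 differed by 0.54 in poor eggs and 0.59 in good eggs, RPN2 by 0.54 and 0.60, RL10 by 0.88 and 0.65, and tcbk0051.e.02 by -0.77 and -0.78. HSPA9B differed by -0.80 in poor eggs and -0.30 in good eggs, and ZNF261 by -0.39 and -0.02. For none of these did the difference between the 2 contrasts pass the test over all clones.

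The test of that difference, the interaction of ovulation control with egg quality, called 1 clone of 8332 (0.012%), with 1043 at an unadjusted p under 0.05. This was tcay0027.n.23, which has no gene name here. Its signals were -0.21, 0.17, -0.12 and -0.29 in 4 poor HI females, against a lowest value of -0.18, a median of 0.35 and a highest value of 0.81 in poor PM females. In good eggs they were 0.59, 0.20, 0.47, 0.62 and 0.26 in HI females, against -0.20, -0.12, -0.08, -0.42 and -0.43 in PM females. The clone was thus lower on average in HI eggs when eggs were poor, with HI values of 0.17 and -0.12 inside the PM range. It was higher in HI eggs, without overlap, when eggs were good. Its call between poor HI and poor PM eggs was lost in 7 of the 14 fits that left out an array. The difference was -0.48 in poor eggs and 0.68 in good eggs, and the interaction was -1.15 with an adjusted p of 0.0214 by limma. The call was lost in 7 of the 24 fits that left out an array, those without poor HI replicates 1 and 4, good HI replicates 7, 9 and 10 and good PM replicates 13 and 14, in each of which the interaction called 0 clones. Over the 24 fits the interaction of this clone ran from -1.25 to -1.09 and its adjusted p from 0.00201 to 0.126. APOB also changed sign, with 0.55 in poor eggs and -0.22 in good eggs, but its interaction of 0.78 had an adjusted p of 0.167. The same held for HCFC1, a cofactor of transcription, with -0.23 in poor eggs, 0.25 in good eggs and an adjusted p of 0.169 for the interaction.

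**Figure D5:**
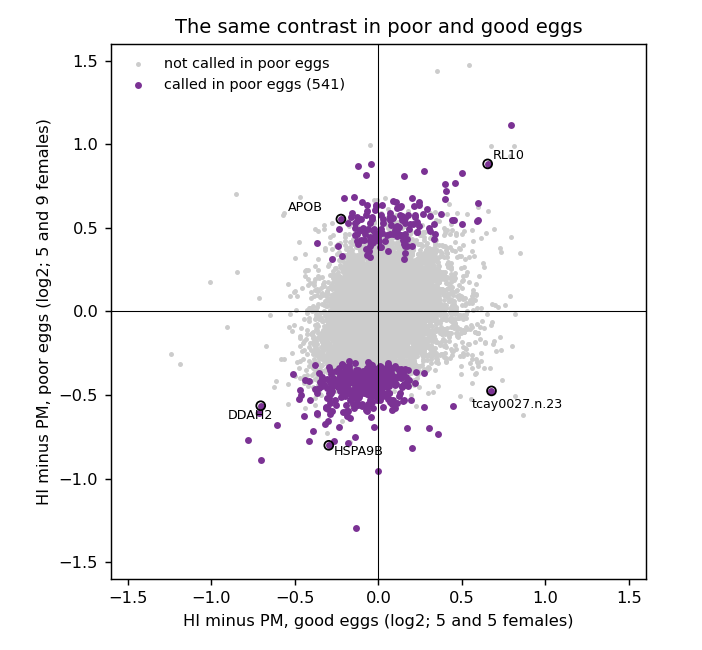
Difference in log2 signal between HI and PM females in poor eggs (y axis) against the same difference in good eggs (x axis), 1 point a clone, with the 541 clones called in poor eggs in purple. RL10, HSPA9B and DDAH2 lie on the same side of 0 in both, and APOB and tcay0027.n.23 lie on opposite sides.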

How the data were processed

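Eggs were measured on 28 arrays, each of 1 female, and grouped by ovulation control and normal alevins from the labels. The deposited values are linear intensities. The authors took radioactive signals, left out spots with a low vector signal, corrected for the DNA spotted and divided by the array median (1 on every array). The handling of duplicate spots was not stated. Of 9216 rows, 193 (vector, water, single sequence) were left out, and 6.59% of clone values were 0 and taken as missing. Clones with at least 20 values (3 in poor HI, 5 in poor PM and 2 in each other group) entered, as log2 without a pseudocount, 1 limma 3.58.1 fit of 5 group means (R 4.3.3, Benjamini-Hochberg, matplotlib 3.10.9), checked on simulated data. The simulated arrays were given no difference in spread, so that check does not bear on calls that go with spread. Samples carry separate female numbers, except 1 number shared by a PM and an N sample. Their number limits the precision. Named were the listed clones, the 10 largest called non-overlapping rises and falls, and the 3 lowest interaction p. Members and lists were chosen with earlier results of these data known. A SAM-type statistic, other scalings, filters, covariates, weights and subsets were alternatives. Another HI sample and cyclin A2 were not analysed here, and 3 listed clones are not reported here. No sequence is printed.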

Additional observations from a re-analysis of the deposited data

Results flagged for a closer look

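Among 155 groups of named clones, 11 had a female far from the others of her group, against 7.75 that chance gives at 1 in 20. In HI eggs these were replicate 2 for LYPA3 (0.14, next 0.43), replicate 4 for HNRPK (1.26, next 0.89) and AGM1 (-1.87, next -1.40), and replicate 5 for 1RT74K23_A_F12 (0.20, next -0.26) and 1RT83E23_A_C12 (2.69, next 2.31). In PM eggs they were replicate 2 for NTAN1 (-0.59, next -0.34), replicate 7 for APOC1 (0.27, next -0.60) and tcac0001.c.18 (2.13, next 1.58), and replicate 8 for RAB3IP (-1.28, next -1.06). PM replicate 4 was far below the other PM females for both DAB2 (2.05, next 2.40) and DDAH2 (1.30, next 1.75), and so nearer the poor HI eggs. It was also the lowest poor PM female for HSPA9B (1.88), SEC22 (0.95) and tcbk0051.e.02 (0.85). For RBM5 (2.41), RPN2 (3.65) and 1RT159P21_B_H11 (3.04) it was the highest, again on the side of the poor HI eggs. For others, such as RL10, APOC1 and CTNNBL1, it was the poor PM female farthest from the poor HI mean. N replicate 1, which carries the same female number, had a DDAH2 signal of 1.97, against 1.17 to 1.26 in the other N females. It was the highest N female for SEC22 and tcbk0051.e.02 and the lowest for RBM5, RPN2 and 1RT159P21_B_H11. For HSPA9B, at 2.12, it lay inside the N range. Its array had the widest spread of the N arrays (interquartile range 1.76). That of PM replicate 4 had the narrowest of the poor PM arrays (1.46). An exchange of these samples was not tested for.

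The difference between HI and PM eggs depended on egg quality by test for 1 clone, tcay0027.n.23, with an interaction of -1.15. In 7 of 24 fits that left out an array the clone was no longer called, with an adjusted p of up to 0.126 (limma).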

How the results depend on the processing

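The number of clones called between poor HI and poor PM eggs (541) was 231 after quantile normalization, 176 with arrays scaled to 1 median absolute deviation, 1 with the interquartile range as a covariate, 3 among females from 15% to 50% normal alevins, 1071 with array weights, 1181 with a SAM-type statistic at a false discovery rate of 5% and 845 without the PM and N samples of the same female number. Chosen after seeing the data, the 3 PM arrays within the HI range of spread gave 4, and the interquartile range as a covariate in the 14 arrays gave 0. Leaving out each array gave 0 to 705, where the lowest came without HI replicate 1. Normal alevins or eyed embryos as covariates, the 14 arrays alone, other filters and a trended, robust variance gave 512 to 674. Replicate numbers rank females and do not pair them (correlations of same-numbered deviations from -0.09 to 0.16). With the number as a block 377 clones were called.

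The 14 calls among listed clones were 10 after quantile normalization (8 higher and 2 lower) and 9 with arrays scaled (8 higher and 1 lower). They were 1 with the interquartile range as a covariate, 0 at 15% to 50%, 22 with array weights and 2 with PM arrays of like spread. They were 0 with the covariate in the 14 arrays, and 0 to 18 without single arrays. The good-egg count of 0 was 1 without the shared female number and 0 in every fit without an array. The interaction count of 1 was 2 with arrays scaled, 22 with the interquartile range as a covariate and 0 to 9 without single arrays. The difference in interquartile range kept its sign and p under 0.05 throughout (-0.18 to -0.14 without single arrays). That in normal alevins ran from -0.33 points, without HI replicate 5, to 9.12.

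Of 76 named clones 17 changed direction in some fit, none of them called, with a largest size of 0.263 in the main fit. Direction over all 541 called clones was counted in 6 of these fits and was kept, but these fits reuse arrays from which the clones were chosen. PHB2 was 0.0893 with the interquartile range as a covariate (0.0909 in the 14 arrays), 0.0949 among females of 15% to 50%, 0.00699 with normal alevins and 0.035 with eyed embryos as covariates, 0.101 with PM arrays of like spread, and from -0.044 to 0.0336 without single arrays. PYC (0.0471) and TF (0.0244) turned with the replicate block.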
